A study of Nasonia vitripennis x Nasonia giraulti with 6 samples.

Results

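Nasonia vitripennis (Nv) and Nasonia giraulti (Ng) are parasitoid wasps whose hybrid daughters can be bred from either mother. In these daughters, 89 of 16505 genes (0.539%) had more RNA when the mother was Ng. These genes were selected by a rule on the counts themselves. Each count was divided by the total of its library and multiplied by 1000000 (CPM), and 0.05 was added. A gene was a member when its mean level in daughters of an Ng mother exceeded 1 CPM, and when it was at least 2-fold higher in 3 ratios: replicate 1 over replicate 1, and replicate 3 over each of replicates 2 and 3 of the opposite cross. The 100 most abundant genes were set aside, which removed 0 members. The same rule applied in the other direction gave 34 genes.

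The crosses were F1VG (mother Nv, father Ng, 3 libraries) and F1GV (mother Ng, father Nv, 2 libraries, replicates 1 and 3). The parents were the Nv strain AsymCX and the Ng strain R16A, so every daughter carried 1 nuclear genome of each species. RNA came from whole bodies of adult females 24 h after eclosion, pooled 10 to a library, and pooling hides the differences between single wasps. In whole bodies, a smaller organ and less RNA per cell cannot be told apart. F1GV replicate 2 was excluded by the study for poor unique mapping and was not analysed here. The labels call the replicates of a cross independent, but they do not say that a number marks anything shared between the crosses.

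Wasps are haplodiploid. A son develops without a father, and only a daughter inherits from both parents, so hybrids of the first generation are female. Daughters of reciprocal crosses therefore share the same nuclear genomes, and they differ in which parent transmitted each species' alleles. Mitochondria and egg cytoplasm come from the mother. Neither the labels nor the study says which mitochondria or cytoplasm either strain carried. Comparing total RNA between the reciprocal daughters asks whether the level of a gene depends on the direction of the cross.

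Library totals ranged from 35337246 counts in F1VG replicate 1 to 55707560 in F1VG replicate 3, and F1GV replicates 1 and 3 held 47228640 and 47830030 counts. Replicate 1 of both crosses stood apart from replicates 2 and 3: 6716 of the 12435 genes tested (54%) differed between them by edgeR's quasi-likelihood test at an adjusted p under 0.05. What separates these replicates is not given in the labels. Genes are known here by the IDs of the official gene set OGS2, none of which could be paired with a name or position in the reference table, and the tissue could not be checked against marker genes. The exceptions were the super cis genes, which the study annotated and which express the allele of a single species mainly or exclusively in both crosses.

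The members were mostly genes of low abundance. Their median level was 0.884 CPM in daughters of an Nv mother and 4.78 CPM in daughters of an Ng mother. Over all 5 libraries it was 2.46 CPM, against 28.9 CPM for all genes tested. In F1GV the means ran from 0.95 to 718 CPM, with 47 members under 5 CPM and 14 over 50 CPM. Together the members took 0.0605%, 0.0822% and 0.108% of the counts in F1VG replicates 1, 2 and 3. They took 0.226% and 0.341% in F1GV replicates 1 and 3, so that each F1GV library gave them more of its reads than any F1VG library. The rule chose genes with higher levels in F1GV and so favours this excess.

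**Figure D1:**
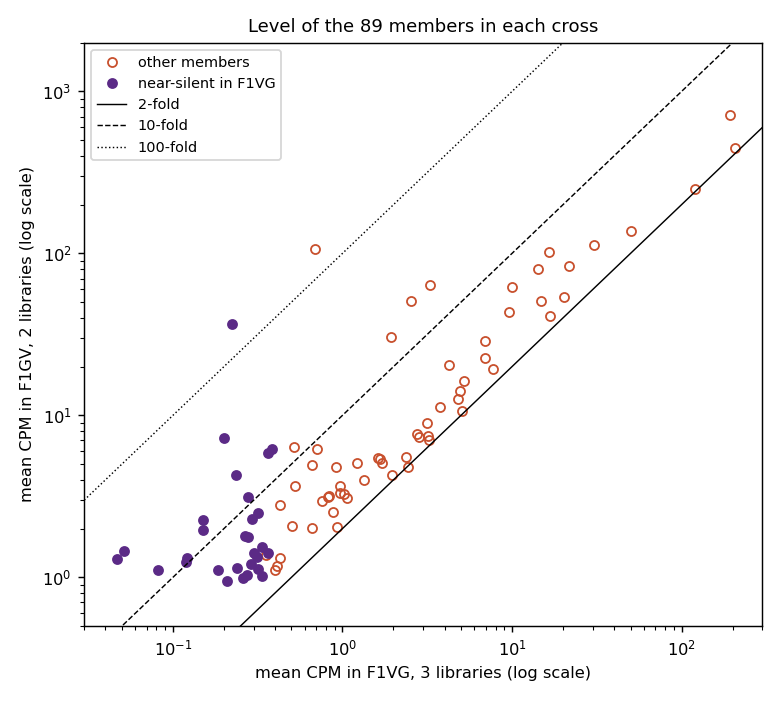
Mean CPM of the 89 members in F1VG (x axis) and F1GV (y axis), both on log scales, with each point a gene. Filled points are members near-silent in F1VG (at most 0.5 CPM in every F1VG library), open points the rest, and lines mark fixed fold differences. Most points lie at low levels, with a median of 0.884 CPM on the x axis and 4.78 CPM on the y axis.

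The difference was modest for most members and extreme for a few. The smallest of the 3 ratios lay between 2 and 3 for 57 members, between 3 and 4 for 10, between 4 and 10 for 19 and between 10 and 50 for 1. It was 50 or more for 2 members, and its median over the 89 was 2.68. At the limit, Nasvi2EG000244, Nasvi2EG008949 and Nasvi2EG008818 lay just inside with smallest ratios of 2.01, 2.01 and 2.02. Nasvi2EG004573, Nasvi2EG034498 and Nasvi2EG004142 lay just outside with 1.99, 1.98 and 1.97, so that the border of the group is not a gap in the data. The 95% counting interval of every ratio lay above 1 for 88 members and above 2 for 43. The rule already required these ratios to be at least 2, so the counts describe the members, and no share over all genes was computed. These intervals are exact and cover counting error only, not the spread between libraries. Duplicate reads of a molecule could not be told from separate molecules.

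**Figure D2:**
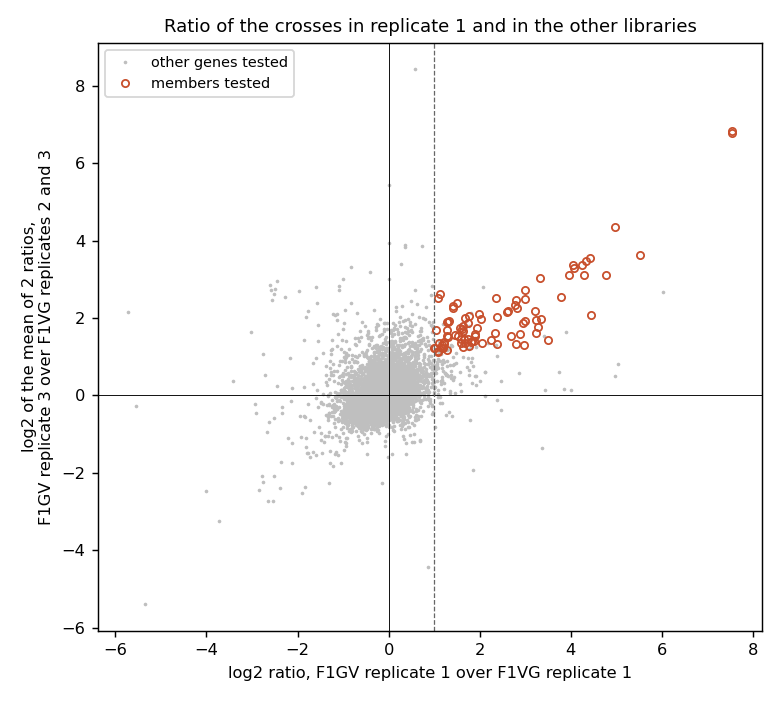
Log2 ratio of F1GV to F1VG in replicate 1 (x axis) against the log2 of the mean ratio of F1GV replicate 3 to F1VG replicates 2 and 3 (y axis), with each point a gene tested and the 87 tested members as open circles. Members lie beyond 2-fold on both axes by construction, and 2 of them stand far from the others at the upper right.

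Both of these genes stayed under 1 CPM in every library with an Nv mother and were above 30 CPM in every library with an Ng mother. Nasvi2EG030327 stood at 0.623, 0.762 and 0.682 CPM in the F1VG libraries and at 125 and 87.1 CPM in the F1GV libraries. Nasvi2EG021229 stood at 0.170, 0.305 and 0.197 CPM in F1VG and at 41.0 and 32 CPM in F1GV. The smallest ratios were 107 and 90.3. Within each cross the libraries of either gene lay close together, and neither was called between replicate 1 and replicates 2 and 3 (edgeR adjusted p = 0.449 and 0.774).

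The next 8 members by the smallest ratio also had low levels in F1VG. Nasvi2EG022687 stood at 0.283, 0.152 and 0.162 CPM in F1VG and at 10.4 and 4.20 CPM in F1GV, at least 20.1 times higher in each ratio. Nasvi2EG003782 stood at 1.39, 3.91 and 2.26 CPM against 65.5 and 35.9 CPM. Nasvi2EG026271 stood at 1.73, 1.55 and 2.51 CPM against 37.9 and 23.1 CPM. The last 2 were not silent in F1VG, and their smallest ratios were 9.08 and 9.04. Nasvi2EG030007 stood at 0.170, 0.229 and 0.305 CPM in F1VG and at 5.95 and 2.63 CPM in F1GV. Nasvi2EG013209 stood at 0.0849, 0.203 and 0.162 CPM against 2.58 and 1.94 CPM. For each of these 5 genes F1GV replicate 1 was higher than F1GV replicate 3, and no F1VG library came near either.

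Nasvi2EG017497 stood at 0.453, 0.407 and 0.233 CPM in F1VG and at 8.36 and 3.39 CPM in F1GV. Its levels were nearly those of Nasvi2EG016046, a member noticed after the values were seen, which stood at 0.481, 0.457 and 0.215 CPM against 8.79 and 3.53 CPM. The files do not show whether these are near-identical copies, so the reads of either could belong partly to the other. 

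Only 2 members had at most 3 counts in every F1VG library. Nasvi2EG014150 had 1, 3 and 2 counts in F1VG and 72 and 52 counts in F1GV, a depth-scaled ratio of 28.4 with a 95% counting interval from 12.7 to 78.7. For Nasvi2EG033352, whose reads are shared with a neighbour, the pooled ratio was 30.1 with an interval from 14 to 86.8. Summed with that neighbour, the member Nasvi2EG033350, the counts were 17, 8 and 15 in F1VG and 206 and 102 in F1GV, and the ratio was 10.6 with an interval from 7.58 to 15.1. These 2 members may count a single difference under 2 IDs. No member lacked counts in F1VG altogether, and the lowest sum over the 3 libraries was 6 counts. The wide intervals of these genes follow from such counts.

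**Figure D3:**
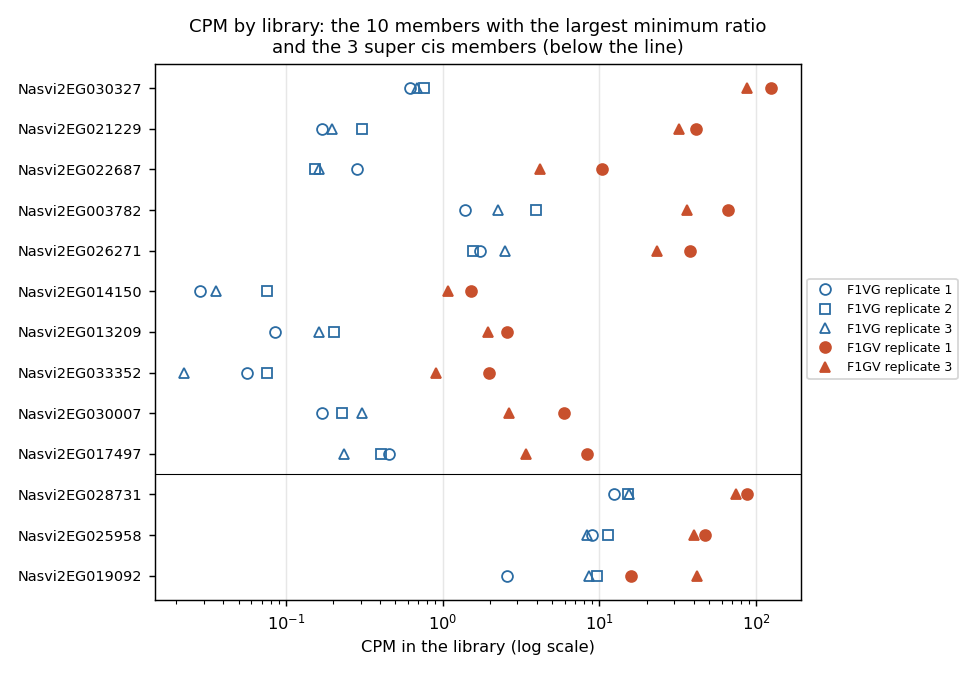
CPM on a log scale (x axis) in each library, marked by cross (colour) and replicate (shape), for the 10 members with the largest minimum ratio and, below the line, the 3 super cis members. Every F1GV point lies to the right of every F1VG point of the same gene, by the widest margin in Nasvi2EG030327, where the F1VG libraries reach 0.762 CPM and the F1GV libraries start at 87.1 CPM.

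Counted as near-silent were members with at most 0.5 CPM in every F1VG library. They numbered 29 of 89 (32.6%), and the other 60 were expressed above that level in at least one F1VG library. The count depends on the limit: 7 members stayed at or under 0.25 CPM and 42 at or under 1 CPM. Low levels in F1VG did not always go with high levels in F1GV, since several near-silent members barely passed 1 CPM there. Nasvi2EG022889, picked after its values were seen, stood at 0.340, 0.305 and 0.359 CPM in F1VG and at 1.12 and 0.920 CPM in F1GV. Nasvi2EG003930 and Nasvi2EG030926 passed 1 CPM only with the offset, at mean levels of 0.95 and 0.99 CPM without it, and were the 2 members that the filter of the tests below left out.

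Of the 10 members most abundant in F1GV, Nasvi2EG030327 had a smallest ratio of 107, the highest of all members. The smallest ratios of the other 9 ran from 2.01 to 4.80. Nasvi2EG010627, the highest, stood at 204, 211 and 167 CPM in F1VG and at 544 and 891 CPM in F1GV. Nasvi2EG000080 stood at 42.7, 49.4 and 59.4 CPM against 117 and 159 CPM. Nasvi2EG002065 stood at 20.5, 27.1 and 17.3 CPM against 58.2 and 110 CPM. In each of these genes the lowest F1GV library was above the highest F1VG library by more than the range of the 3 F1VG libraries. Nasvi2EG005737 stood at 11, 13.5 and 25.3 CPM in F1VG and at 87.7 and 117 CPM in F1GV. Nasvi2EG027268 stood at 34.5, 21.0 and 36.2 CPM against 73.3 and 153 CPM, where the F1GV libraries themselves were about as far apart as the crosses.

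In 83 members the libraries of the crosses did not overlap, a pattern that 610 of the genes tested (4.91%) showed in this direction, and the rule itself favours it. The other 6 overlapped: Nasvi2EG000244, Nasvi2EG002204, Nasvi2EG005332, Nasvi2EG008818, Nasvi2EG013618 and Nasvi2EG017766. In these genes replicate 1 was low in both crosses. Nasvi2EG000244 stood at 60.8, 174 and 384 CPM in F1VG replicates 1, 2 and 3 and at 124 and 771 CPM in F1GV replicates 1 and 3. Nasvi2EG008818 stood at 31.6, 131 and 198 CPM against 102 and 400 CPM. F1GV replicate 1 thus lay below F1VG replicates 2 and 3 in both genes.

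The comparison between the crosses was also fitted across all 12435 genes that passed 1 CPM on average in at least one cross. Of the members 87 were tested, and 47 of these passed this filter only through F1GV. With the cross alone, 3 genes (0.0241%) were called higher in F1GV at an edgeR adjusted p under 0.05 and all 3 were members, while 0 genes were called lower (82 at an unadjusted p under 0.05). They were Nasvi2EG030327 (log2 fold change 7.25, SE 0.26, adjusted p = 0.0034), Nasvi2EG021229 (7.34, SE 0.35, adjusted p = 0.0091) and Nasvi2EG014150 (4.74, SE 0.43, adjusted p = 0.038). At an unadjusted p under 0.05, 219 genes (1.76%) were higher in F1GV and 81 of these were members. DESeq2 called 45 genes (0.362%) higher in F1GV, 41 of them members, and 21 (0.169%) lower. The rule used this same contrast, so these counts describe the members and add no evidence for them. Over the tested members the log2 fold change had a median of 1.97 and ran from 1.0 to 7.34, beside a median of 0.02 over all genes tested.

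Leaving out a library moved these calls. The count by edgeR was 1 when F1VG replicate 1 was omitted, 2 when F1GV replicate 1 was omitted and 6, of which 5 were members, when F1GV replicate 3 was omitted. It was 0 when F1VG replicate 2 or 3 was omitted, with 117 and 144 genes higher in F1GV at an unadjusted p under 0.05. Nasvi2EG014150 had an edgeR adjusted p of 0.070 without a filter on low counts and of 0.056 with edgeR's own filter. It was 0.13 with the older quasi-likelihood option, where 2 genes were called, and 0.068 with a term for each replicate number. The adjusted p stayed under 0.05 with RLE scaling (0.042), with total counts (0.0498) and by DESeq2 (0.0015).

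With a term for replicate 1 against replicates 2 and 3, 64 genes (0.515%) were called higher in F1GV and 21 (0.169%) lower. The 64 held 54 members and 10 other genes, and 33 tested members were not called. The rule compared the libraries in this same grouping. The calls and p-values of members in this fit therefore describe them and add no evidence for them. The biological coefficient of variation was 0.348 with the cross alone and 0.148 with the term. Among the members called with the term alone was Nasvi2EG020654, named after its values were seen, at 7.87, 11.2 and 10.9 CPM in F1VG and 62.7 and 62.2 CPM in F1GV (log2 fold change 2.74, SE 0.14, adjusted p = 0.0018). Nasvi2EG022687 gave 4.95 (SE 0.25, adjusted p = 0.0018). Nasvi2EG010627 gave 1.94 (SE 0.21, adjusted p = 0.019) and Nasvi2EG000244 gave 1.32 (SE 0.33, adjusted p = 0.19).

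The ratio in replicate 1 and the ratios in the other replicates share no library. Among the genes tested, 208 (1.67%) were at least 2-fold higher in F1GV in replicate 1. Among the same genes, 292 (2.35%) were at least 2-fold higher in F1GV replicate 3 than in both F1VG replicates 2 and 3. The lists shared 87 genes, which is 41.8% of the first list and 29.8% of the second. All of these are members by construction, since the rule requires both conditions, so the overlap adds no evidence for them. Of the first list 2 genes were at least 2-fold lower in F1GV replicate 3, and 24 genes of the second list were at least 2-fold lower in replicate 1. In the lower direction the lists held 198 (1.59%) and 49 (0.394%) genes and shared 31. The sizes of the members' differences also varied between the pairs of libraries, with median ratios of 3.71 in replicate 1 and of 3.44 and 2.97 for F1GV replicate 3 over F1VG replicates 2 and 3. The corresponding medians over all genes tested were 1.0, 0.944 and 0.976.

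The ratio in replicate 1 was above the mean of the ratios in the other libraries in 55 members and not above it in 34. The rule required a single ratio in replicate 1 but both ratios of F1GV replicate 3. No share over all genes was computed for this split. The widest gap was in Nasvi2EG005473, which stood at 5.43, 3.07 and 1.40 CPM in F1VG replicates 1, 2 and 3 and at 119 and 8.32 CPM in F1GV replicates 1 and 3. Its ratio was 21.7 in replicate 1 and 2.68 at the smallest. A test of whether the cross difference itself changed between replicate 1 and the others called 0 of the 87 tested members by edgeR. The smallest adjusted p was 0.129, in Nasvi2EG005473, and 11 of the 87 had an unadjusted p under 0.05. Over all genes the test called 54 (0.434%), and 764 (6.14%) at an unadjusted p under 0.05. The rule required every ratio of a member to be at least 2-fold in the same direction, so the choice of members constrains this test. A missed threshold with 5 libraries does not show that the ratios were equal.

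The difference between replicate 1 and replicates 2 and 3, with the cross held fixed, was not used to choose the members. It was called in 37 of 87 tested members (42.5%), of which 23 were higher and 14 lower in replicate 1, and 50 were not called. The shares over all genes were 54% in either direction, 24.7% higher and 29.3% lower. Members had lower levels (median 2.46 CPM against 28.9 CPM), where a difference is harder to call, and the shares were not matched for level. Changes beyond 2-fold were called in 21 members (24.1%), against 16.3% of all genes, and the median size of the log2 difference was 0.59 in the members and 0.47 over all genes. The count of 37 became 12 if F1GV replicate 1 was left out and 11 if F1GV replicate 3 was left out, where a single F1GV library is left and is assumed to vary like those of F1VG.

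Members moved in both directions along this contrast. Lower in replicate 1 were Nasvi2EG000244 (log2 difference −2.52, SE 0.37, adjusted p = 0.0028) and Nasvi2EG008818 (−2.34, SE 0.22, adjusted p = 0.0011). Higher in replicate 1 were Nasvi2EG005473 (2.47, SE 0.61, adjusted p = 0.016) and Nasvi2EG013868 (2.49, SE 0.44, adjusted p = 0.0050), the latter named after its values were seen. Nasvi2EG013868 stood at 0.453, 0.178 and 0.197 CPM in F1VG and at 5.67 and 0.585 CPM in F1GV. Its level was higher in replicate 1 of both crosses, but by more in F1GV (268 and 28 counts). In F1VG the difference rested on only 16, 7 and 11 counts.

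**Figure D4:**
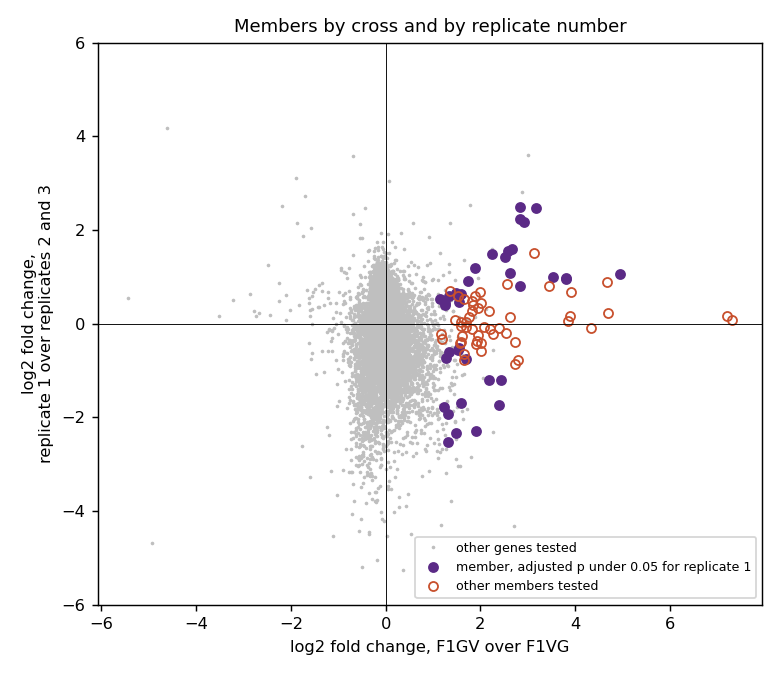
Log2 fold change between the crosses (x axis, F1GV over F1VG) against log2 difference between replicate 1 and replicates 2 and 3 (y axis) in the model with both terms, each point a gene. Filled circles are members called between the replicates and open circles are the other tested members. Members lie on the right by construction and spread from −2.52 to 2.49 on the y axis, whose range leaves out 5 genes.

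IDs of OGS2 that follow each other were used as a rough guide to neighbouring genes, since no positions were at hand. Of the 89 members, 8 (8.99%) stood in runs of consecutive IDs, in 4 pairs. Among the 34 genes that met the rule in the other direction, 12 (35.3%) stood in such runs, and the difference was not tested. Nasvi2EG009647 stood at 2.09, 0.838 and 0.736 CPM in F1VG and at 7.16 and 3.01 CPM in F1GV, and Nasvi2EG009648 at 0.481, 0.203 and 0.269 CPM against 4.04 and 0.983 CPM. Nasvi2EG027744 stood at 4.33, 5.01 and 3.41 CPM against 30.6 and 10.2 CPM, and Nasvi2EG027745 at 0.623, 0.305 and 0.359 CPM against 1.61 and 1.02 CPM. In both pairs all 4 genes were highest in F1GV replicate 1.

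The third pair, Nasvi2EG028683 and Nasvi2EG028684, was highest in F1GV replicate 3. The first stood at 1.95, 2.46 and 2.66 CPM in F1VG and at 4.57 and 6.54 CPM in F1GV, and the second at 3.65, 3.94 and 7.13 CPM against 11 and 17.2 CPM. The last pair, Nasvi2EG022821 and Nasvi2EG022822, had fractional counts that add up to whole numbers, as when reads over both genes are divided between them. Its summed level was 27.7, 20.0 and 18.0 CPM in F1VG and 68.5 and 46.2 CPM in F1GV, so this pair may count a single difference under 2 IDs.

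Allowing steps of up to 2 gave 16 members in 7 groups, and steps of up to 5 gave 18 in 8 groups. The widest group joined Nasvi2EG006658, Nasvi2EG006660 and Nasvi2EG006662, which were named for this position. The first stood at 3.42, 5.92 and 5.08 CPM in F1VG and at 11.8 and 13.3 CPM in F1GV. Between them lay Nasvi2EG006661, too low for a member at 0.226, 0.279 and 0.251 CPM against 0.974 and 0.711 CPM, with ratios of 3.70, 2.31 and 2.53. The next ID, Nasvi2EG006663, was level, with ratios of 1.0, 0.848 and 0.932.

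Among the nearest neighbours of members in ID order that were tested, were not members and did not share reads with a member, 31 of 102 (30.4%) had all 3 ratios above 1, against 16.1% of the tested genes that were not members. With the 3 neighbours that share reads included, the count was 33 of 105 (31.4%). Among these 3 was Nasvi2EG027743, between the members Nasvi2EG027742 and Nasvi2EG027744, with ratios of 3.49, 1.41 and 2.25. In 3 of the 102 (2.94%, against 0.777%) every ratio was at least 1.5, namely Nasvi2EG005736, Nasvi2EG032924 and Nasvi2EG034498. Every ratio was below 1 in 21 of the 102, a count for which the share over all genes was not computed. Nasvi2EG005736 stood at 19.3, 5.13 and 19.6 CPM in F1VG and at 67.3 and 35.7 CPM in F1GV, next to the abundant member Nasvi2EG005737. These shares were not tested, and whether reads shared between neighbours contribute to them was not tested. IDs above 20000 made up 40.4% of the members, 24.5% of all genes and 16.8% of the genes tested. Tested genes with such IDs had a lower median level, 11.1 CPM against 33.4 CPM.

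**Figure D5:**
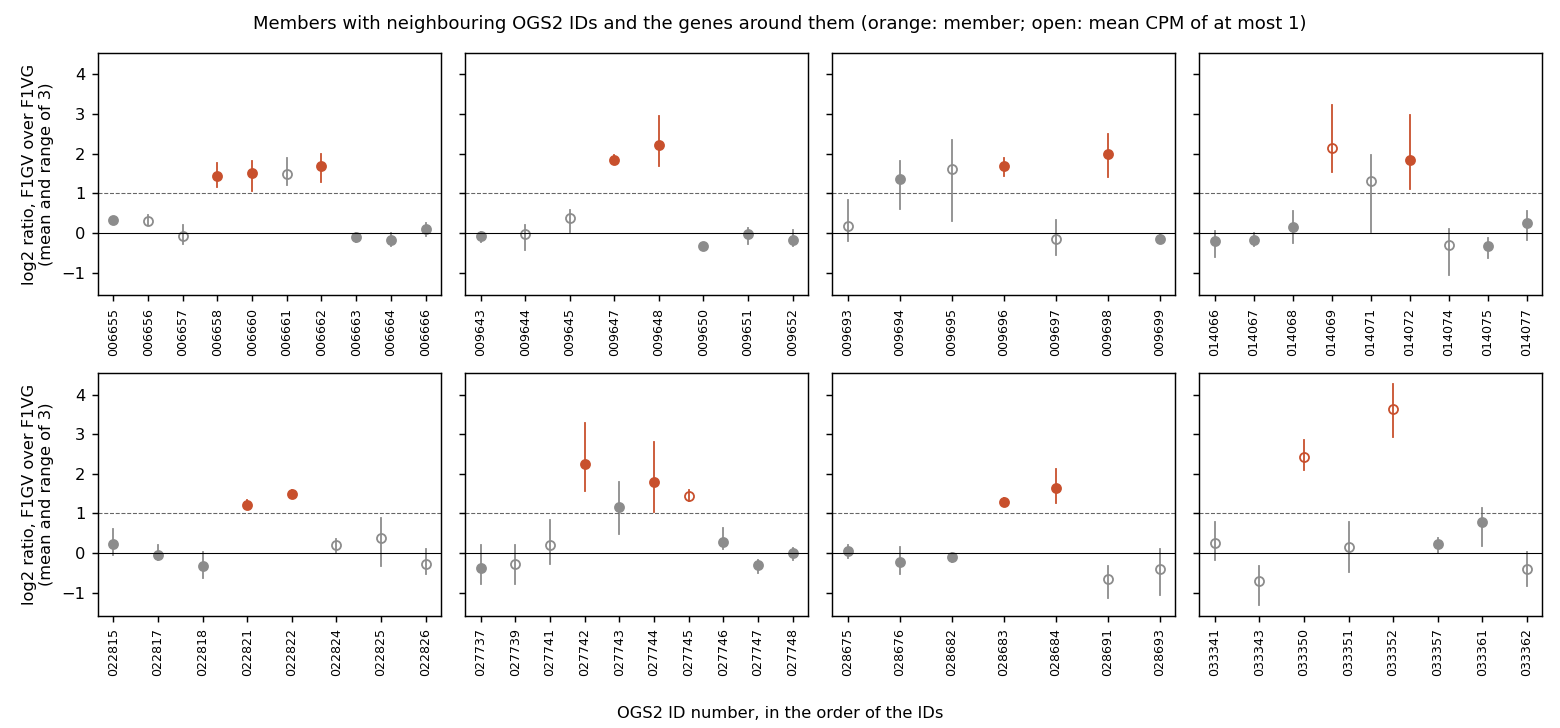
Log2 ratio of F1GV to F1VG (y axis) of members and of the IDs around them (x axis, in ID order) for the 8 groups of members within 5 steps. Points give the mean of the 3 log2 ratios (orange for members, grey for other genes), bars their range, and open points genes with a mean of at most 1 CPM. Most of the grey points lie near 0, and Nasvi2EG006661 lies among the members around it.

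Fractional counts occurred in 10 members (11.2%), against 18.9% of the genes tested, and for 9 of them a gene within 5 IDs made the sum whole to within 0.01 counts in every library. For Nasvi2EG000667, summed with its partner, the level was 0.877, 0.330 and 0.359 CPM in F1VG and 5.82 and 1.99 CPM in F1GV, and the difference stayed in the sum. For Nasvi2EG005084 the sum was 125, 159 and 126 CPM in F1VG and 151 and 210 CPM in F1GV, and for Nasvi2EG002027 it was 15.5, 13.4 and 11.3 CPM against 14.3 and 14.2 CPM. The difference of these 2 members was small beside the reads of the partner. Counts of Nasvi2EG005084 were fractional in every library, and those of Nasvi2EG002027 only in F1GV replicate 3 (51.2 counts). How far either difference depends on the division of shared reads was not tested.

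Of the super cis genes, 3 of the 50 that use the Nv allele and 0 of the 11 that use the Ng allele were members. Over all genes the share of members was 0.539%, and the lists were not compared by a test. In each list 1 gene met the rule in the other direction. The study chose these lists by allelic ratio and partly in the same libraries, so they are not independent of these data. Nasvi2EG028731, annotated by the study as an endonuclease and reverse transcriptase of a transposable element, stood at 12.3, 15.3 and 15.4 CPM in F1VG and at 86.9 and 74.1 CPM in F1GV. Reverse transcriptases copy RNA into DNA when a retroelement moves. Nasvi2EG025958, a hypothetical protein, stood at 8.91, 11.4 and 8.38 CPM against 46.9 and 39.8 CPM. In both genes the libraries of a cross lay close together and the crosses were far apart.

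Nasvi2EG019092, annotated as a precursor of venom protein m, stood at 2.58, 9.60 and 8.63 CPM in F1VG and at 16.0 and 41.7 CPM in F1GV. Venom proteins are made by the female in the venom gland and are injected into the host at oviposition. Replicate 1 was low in both crosses for this gene (log2 difference −1.73, SE 0.16, edgeR adjusted p = 0.0011), while the ratio between the crosses was 4.33 at the smallest and 6.11 at the largest. With the term for replicate 1 the fold changes were 2.54 (SE 0.14) for Nasvi2EG028731, 2.21 (SE 0.17) for Nasvi2EG025958 and 2.40 (SE 0.15) for Nasvi2EG019092, all on the log2 scale.

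Other super cis genes with related annotations, named after their values were seen, had smaller differences or lower levels in F1GV. The pol polyprotein of a retrovirus-related transposon, Nasvi2EG018142, stood at 29.9, 24.3 and 22.8 CPM in F1VG and at 27.0 and 18.6 CPM in F1GV. The nuclease harbi1-like Nasvi2EG031633 had ratios of 0.917, 0.759 and 0.890. Venom allergen 3-like, Nasvi2EG005783 of the Ng list, stood at 51.3, 42.0 and 27.8 CPM in F1VG and at 31.7 and 25.4 CPM in F1GV, lower in each of its 3 ratios. Venom carboxylesterase-6, Nasvi2EG007568, stood at 24.3, 18.2 and 21.3 CPM against 24.3 and 24.4 CPM. All 3 ratios were above 1 in 17 genes of the Nv list and 2 of the Ng list, and below 1 in 13 and 4. The member Nasvi2EG003930 carries the ID next to Nasvi2EG003931, a harbinger transposase-derived nuclease of the Ng list that stood at 9.42, 10.7 and 8.02 CPM against 13.5 and 9.18 CPM.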

How the data were processed

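Per the labels and the study's methods, RNA of pooled whole females was extracted, sequenced single-end (6 libraries, 5 used here), trimmed with Trimmomatic and aligned to both genomes with TopHat2. The authors deposited unscaled estimated counts for each OGS2 gene. Cufflinks, HTSeq and BEDTools are named as counters, without stating which made the table or whether strand was used. All columns were mapped to samples, and 0 were left unused.

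Counts were rounded and tested in R 4.3.3 with edgeR 4.0.16 (quasi-likelihood, TMM, newer quasi-likelihood option, mean above 1 CPM in at least one cross, cross as only term, Benjamini-Hochberg threshold 0.05). The SE given with an edgeR fold change is derived from the test. It is the absolute log2 fold change divided by the square root of the F statistic. DESeq2 1.42.0, other scalings and filters, a replicate 1 term, a replicate block, other limits of the rule and omission of libraries were alternatives. The interaction test, the older quasi-likelihood option and the use of whole-number genes alone in the edgeR fits were added after seeing the data.

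The rule naming genes took the 10 members with the largest smallest ratio, the 10 most abundant in F1GV, members called with the cross alone, runs of adjacent IDs, super cis members, and the 3 genes on each side of the limit. The members, lists and tests were chosen with earlier results of these data known. The p-values measure only the spread between these libraries.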

Additional observations from a re-analysis of the deposited data

How the results depend on the processing

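The membership count of 89 was 186 at a limit of 1.5-fold, 32 at 3-fold and 22 at 4-fold, 42 with a mean above 5 CPM and 39 with an offset of 1 CPM. Omitting a library, with the conditions that need it dropped, gave 108 to 298 genes: 297 without F1VG replicate 1, 298 without F1GV replicate 1 and 210 without F1GV replicate 3. With TMM scaling the rule gave 93 genes, 88 of them shared. Of the 29 near-silent members, 7 stayed at or under 0.25 CPM and 2 at or under 3 counts. Members in groups of IDs numbered 8, then 16 at steps of up to 2 and 18 at steps of up to 5. Genes called higher in F1GV were 3, 45 by DESeq2, 64 with the replicate 1 term, 12 (0.0965%) with the replicate block and 0 to 6 with a library left out. Among members these counts were 3, 41, 54, 12 and 0 to 5, and with the replicate 1 term 74 with total counts and 72 with RLE factors, both chosen after seeing the data; the cause was not tested. The 12 members called with the block were all among the 54, and Nasvi2EG010627, one of the 54, had an edgeR adjusted p of 0.19 with the block. With 2 shared numbers, deviations from the cross means correlated at 0.83 for replicate 1 and 0.76 for replicate 3, too few pairs to show that the numbers pair the libraries. Members called between replicate 1 and the others ranged from 11 to 44 with a library left out. The median log2 fold change of the members ranged from 1.88 to 2.08. The share of the replicate 1 list found in the other libraries, 41.8%, was 34.9% at 4-fold and 32% with an offset of 1 CPM. Without F1GV replicate 3 the fold changes of Nasvi2EG000244 and Nasvi2EG008818 turned negative, to −0.84 and −0.35, since replicate 1 is then the only F1GV library, and with any library left out they reached 2.02 and 1.80. Of 414 values for the 30 named members, 353 kept their side of the threshold, 13 lost the call, 46 gained it and 2 changed sign. Counts under 10 in F1VG limit the size of the difference for the lowest members, and 5 libraries limit every test.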
